A study of Homo sapiens with 6 samples.

Results

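The heat shock and chaperone genes of a human cell line were followed across 16 h of auxin treatment. Members were the protein-coding genes of GENCODE release 29 whose symbols belong to the HSP70 (HSPA, HSPH1), HSP90, HSP60/HSP10 (HSPD1, HSPE1), small heat shock protein (HSPB), J-domain (DNAJA, DNAJB, DNAJC) and CCT families (CCT2 to CCT8, TCP1), together with the transcription factor gene HSF1. This rule found 85 of the 58780 human gene entries. The cells were HCT116, an established line from a human colorectal carcinoma, and RNA-seq was run on 6 libraries. They were 3 biological replicates treated with auxin for 16 h and 3 treated with DMSO, a solvent used as the control. Auxin is a plant hormone that can trigger the breakdown of degron-tagged proteins. The labels name no tagged protein, no clone and no receptor transgene for either group, so the targeted gene could not be checked. The series title concerns chromosome regions and nuclear speckles, and its design text gives auxin against DMSO as the comparison.

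Chaperones hold other proteins in a foldable state. HSP70 proteins bind and release unfolded chains with the help of J-domain proteins, which start their ATP hydrolysis, and of nucleotide exchange factors, which reset them. HSP90 acts later on kinases and receptors, HSP60 with HSP10 folds proteins inside mitochondria, the CCT ring folds actin and tubulin in the cytosol, and small heat shock proteins hold unfolded proteins without ATP. HSF1 binds heat shock elements, runs of inverted GAA units, and switches on the inducible chaperone genes under stress, while many family members are made at a steady level without it.

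The libraries held between 234035407 and 625892507 expected counts, with replicate 1 deepest in DMSO and in auxin alike. All 6 epithelial markers were detected at 29.7 to 982 TPM (a level per transcript length, with the total equal across libraries). The 4 markers of leukocytes, endothelium, fibroblasts and liver reached at most 2.61 TPM. Replicate 1 stood apart from replicates 2 and 3 for the chaperone genes. Of the 76 members with enough counts to test, 56 were lower in replicate 1 than in the mean of replicates 2 and 3 in both groups. The median log2 ratio was -0.17 in DMSO and -0.19 in auxin, against 0.02 and 0.05 over all 19725 genes tested. Because the same offset was present in both groups, values are given by replicate number.

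The members split into 16 higher and 22 lower after auxin, with 38 not called. Genes were called at 0.05 on the p of the quasi-likelihood test in edgeR after Benjamini-Hochberg adjustment over all genes tested. Called members were 50.0% of those tested, close to the 52.3% of all genes tested. Higher calls made up 21.1% of the members against 25.4% of all genes, and lower calls 28.9% against 26.9%. The median log2 fold change was 0.03, against 0.02 over all genes. At a change of at least 2-fold, 2 members were higher and 4 lower, where 6.55% and 13.3% of all genes were. The 3 values in CPM (a count scaled to the library total with TMM factors) of each group did not overlap in 42 members, or 55.3%, against 60.3% of all genes. In 18 of them auxin was higher and in 24 lower, against 30% and 30.4% of all genes. The remaining 9 members were below the filter on low counts: DNAJB7, DNAJB8, DNAJB13, HSPA6, HSPA12B, HSPB2, HSPB3, HSPB7 and HSPB9. RNA was measured from bulk cultures, in which fewer cells that make an RNA and less RNA per cell cannot be told apart.

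The split depended on how replicate 1 and the scale were treated. With the replicate number as a block, 34 members were higher and 29 lower. Over all genes that fit called 69.9%, with 35.5% higher and 34.4% lower. From replicates 2 and 3 alone the numbers were 28 and 25, where 30.2% and 31.8% of all genes were called. With upper-quartile factors, which moved the median of all genes by 0.12 on the log2 scale, they were 28 and 14, where 33.1% and 22.4% of all genes were called. All 38 calls kept their direction in every alternative, and 10 of them were called in all of these: HSF1, HSPA1B, HSPB11, DNAJB2, DNAJB4, DNAJB5 and DNAJC9 among the lower genes and DNAJC2, DNAJC5B and CCT6B among the higher ones. The same was not counted over all called genes, so these counts do not set the members apart from other genes.

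**Figure D1:**
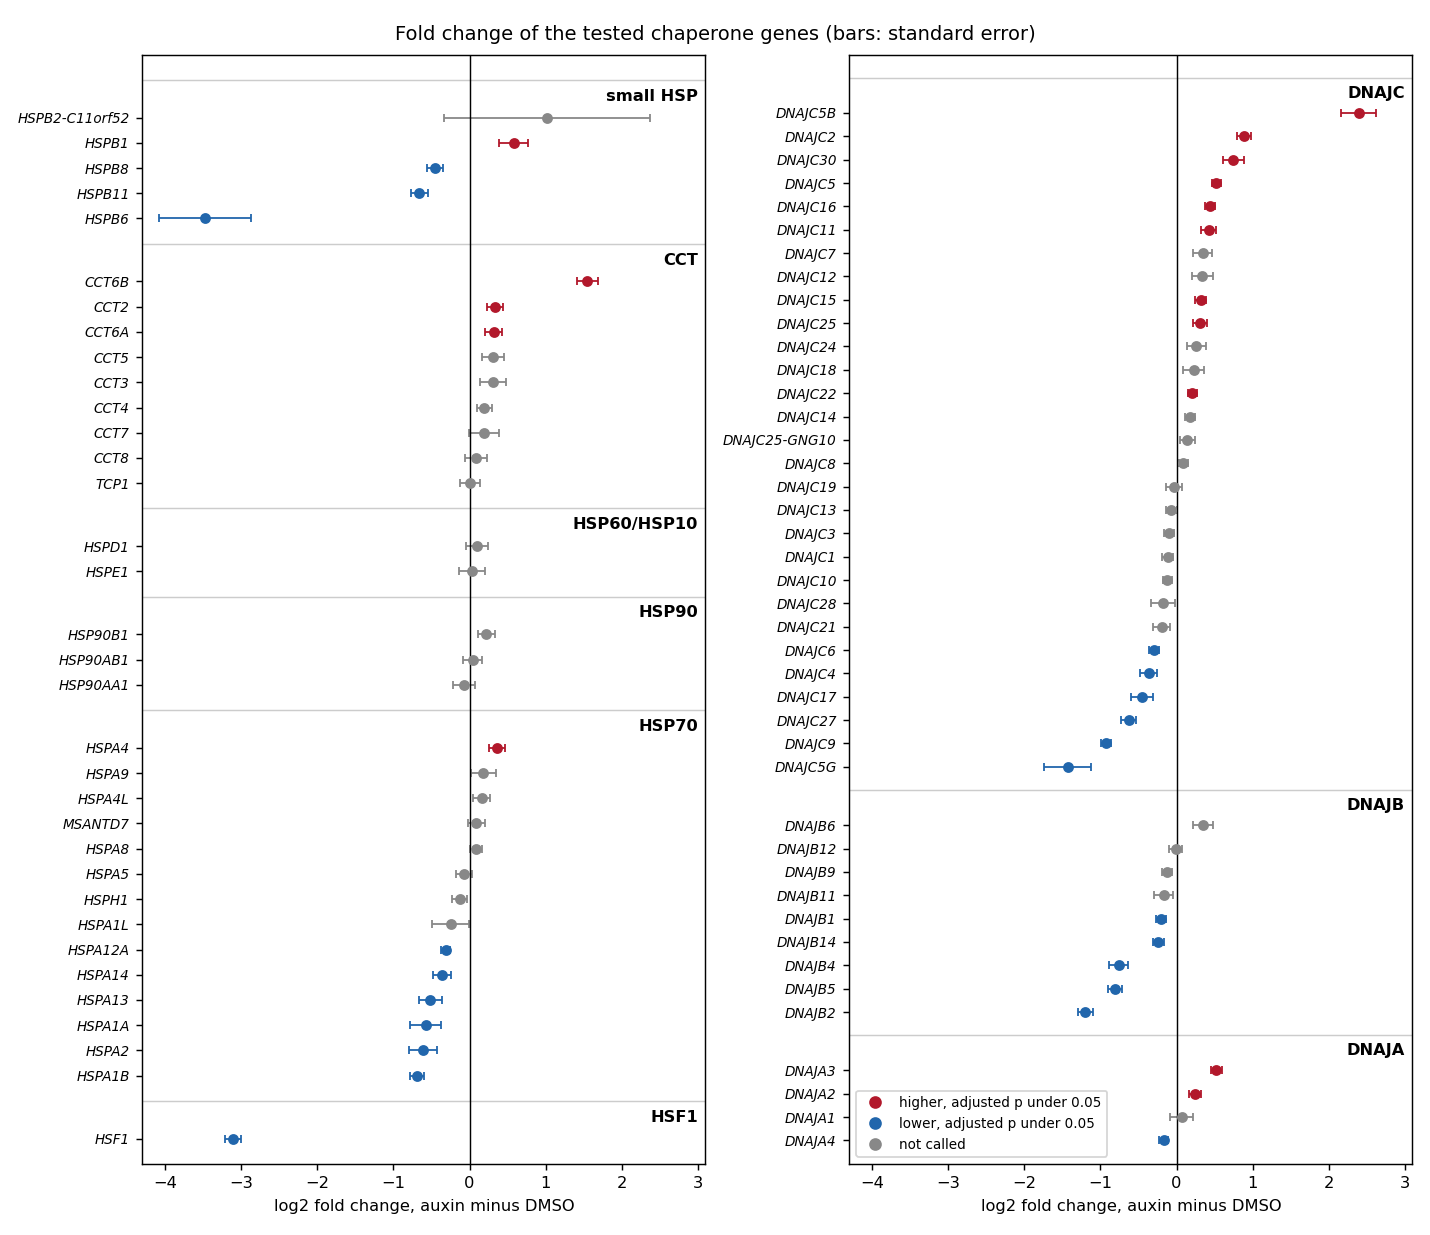
Log2 fold change (auxin minus DMSO) of the 76 tested members on the horizontal axis, by family, with bars for the standard error; red marks genes called higher, blue genes called lower and grey genes not called. HSF1 lies at -3.11, most abundant chaperones lie near 0, and all 9 CCT genes lie at or above 0.01, though TCP1 and CCT8 fall below 0 with library-size scaling and on the TPM scale. MSANTD7 is the current symbol of an entry named HSPA14 in release 29.

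HSF1, the master regulator of the heat shock response, had the deepest fall of any member above 1 CPM. HSF1 (ENSG00000185122.10, GRCh38 chromosome 8, 144291591 to 144314722, plus strand) was read at 74.1, 65.6 and 65.8 CPM in DMSO replicates 1, 2 and 3. After auxin it was read at 9.05, 7.10 and 7.67 CPM. The DMSO libraries all lay far above the auxin libraries, and replicate 1 was the highest of each group. Mean CPM went from 68.5 ± 4.83 to 7.94 ± 1.00 (SD, n = 3 each), which is -3.11 on the log2 scale (standard error 0.11, adjusted p = 2.65e-06), or 8.61-fold lower. The last 139 bases of HSF1 overlap DGAT1, a gene of triglyceride synthesis on the opposite strand, which fell too, with a log2 fold change of -2.91. Whether counting used the strand is not given in the sources used here, so reads of the overlap could belong to either gene.

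Textbook inducible targets of HSF1 were counted next. The list of 11 such genes was HSPA1A, HSPA1B, HSPA6, HSPA8, HSPH1, HSPB1, HSP90AA1, HSP90AB1, DNAJB1, HSPD1 and HSPE1. Of the 10 tested, 1 was higher, 3 were lower and 6 were not called, with a median log2 fold change of -0.02. Lower calls were 30% of the list, near the 26.9% of all genes, and higher calls 10% against 25.4%. With the replicate block 2 were higher and 4 lower.

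HSPA1B, an intronless gene for the inducible cytosolic HSP70, fell. HSPA1B (ENSG00000204388.6, chromosome 6, 31827735 to 31830255, plus strand, 1 exon) was at 240, 199 and 234 CPM in DMSO replicates 1, 2 and 3. After auxin it was at 147, 131 and 140 CPM. Each auxin library lay below each DMSO library. The log2 fold change was -0.69 (standard error 0.09, adjusted p = 0.000516), or 1.61-fold lower, and it was called in all 16 alternatives in which the gene was tested on its own.

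HSPA1A encodes the same protein from a neighbouring locus (ENSG00000204389.9, chromosome 6, 31815464 to 31817946, plus strand). It was listed at 0.769, 1.03 and 1.24 CPM in DMSO and at 0.616, 0.670 and 0.754 CPM after auxin, in replicates 1, 2 and 3. The groups did not overlap, but the lowest DMSO library was close to the highest auxin library. The log2 fold change was -0.58 (standard error 0.20, adjusted p = 0.0489), and the call was lost in 8 of 17 alternatives. Among these were 5 with a library left out (DMSO replicate 2 or 3, or any auxin replicate), with adjusted p from 0.0751 to 0.138 in edgeR.

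The 2 genes could not be separated with confidence. The coding parts of the transcripts HSPA1A-201 and HSPA1B-201 differ at 4 of 1923 bases, and 66.0% of all 151-base windows of HSPA1B-201, the length of a read, also occur in HSPA1A-201. The deposited tables give 0 counts to the intronless HSPA1A-201 in 5 of the 6 libraries. They place 98.4% to 100% of HSPA1A in HSPA1A-202, which has 2 exons. The posterior standard deviation of the HSPA1A count reached 13.2% of the count. With HSPA1A and HSPA1B merged into 1 gene the value was -0.69 (adjusted p = 0.000507 in edgeR).

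HSPA1L, a testis-enriched HSP70 gene that starts 398 bases from HSPA1A on the other strand, lay between 0.216 and 0.324 CPM in DMSO and between 0.186 and 0.276 CPM after auxin. It was not called, and its groups overlapped. HSPA6, a strictly stress-induced HSP70 gene with 1 exon, was at most 0.0167 CPM in any library and was not tested.

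DNAJB1, the J-domain partner of inducible HSP70, was lower by a small margin. It was at 215, 203 and 229 CPM in DMSO replicates 1, 2 and 3 and at 188, 182 and 190 CPM after auxin. The groups did not overlap. The difference was -0.21 on the log2 scale (standard error 0.06, adjusted p = 0.0290), but 8 of 17 alternatives ended the call, and with upper-quartile factors it was -0.09. Leaving out any library but DMSO replicate 2 ended it too, with values from -0.22 to -0.18 and adjusted p from 0.0550 to 0.110 in edgeR. DNAJB1 shares 12686 bases with TECR, a fatty acid elongation gene on the opposite strand, which fell by 0.86 on the log2 scale.

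HSPB1, which encodes the small heat shock protein HSP27, went the other way. It was at 230, 161 and 157 CPM in DMSO replicates 1, 2 and 3 and at 335, 233 and 251 CPM after auxin. Replicate 1 was the highest library of each group, and the lowest auxin value was just above the highest DMSO value. The log2 fold change was 0.58 (standard error 0.19, adjusted p = 0.0372), and 7 of 17 alternatives ended the call. Without DMSO replicate 2 or 3 or auxin replicate 1 or 3 the value was 0.41 to 0.64, with adjusted p from 0.0612 to 0.135 in edgeR. From replicates 2 and 3 alone HSPB1 was called (adjusted p = 6.99e-06), as it was with the block (adjusted p = 1.90e-06).

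HSPA8, HSP90AA1 and HSPH1 were not called. HSPA8, the constitutive cytosolic HSP70 and the member with the most RNA per length, was at 4012, 3800 and 4178 CPM in DMSO and at 4007, 4221 and 4461 CPM after auxin. HSP90AA1, the inducible cytosolic HSP90, was at 2041, 2517 and 2745 CPM in DMSO and at 1949, 2541 and 2469 CPM after auxin. HSPH1, an HSP110 exchange factor for HSP70, was at 488, 515 and 577 CPM in DMSO and at 424, 506 and 515 CPM after auxin. In these 3 genes the groups overlapped. The log2 fold changes were 0.08 (standard error 0.08, adjusted p = 0.409) for HSPA8, -0.07 (standard error 0.14, adjusted p = 0.715) for HSP90AA1 and -0.13 (standard error 0.10, adjusted p = 0.327) for HSPH1. The block called HSPH1 lower (adjusted p = 0.0176). The sign of HSPA8 turned to -0.0101 with library-size scaling, where upper-quartile factors called it higher at 0.20, and the sign of HSP90AA1 turned to 0.05 with upper-quartile factors.

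HSP90AB1, the constitutive HSP90, lay between 3152 and 3856 CPM in DMSO and between 3139 and 3979 CPM after auxin, with a log2 fold change of 0.04 that turned to -0.05 with library-size scaling. The mitochondrial pair HSPD1 and HSPE1, which encode HSP60 and HSP10, had log2 fold changes of 0.09 (standard error 0.15) and 0.03 (standard error 0.17). HSPE1 turned to -0.06 with library-size scaling. The block called HSPD1 higher (adjusted p = 0.0370). No other alternative called any of these 3 genes, and their groups overlapped.

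**Figure D2:**
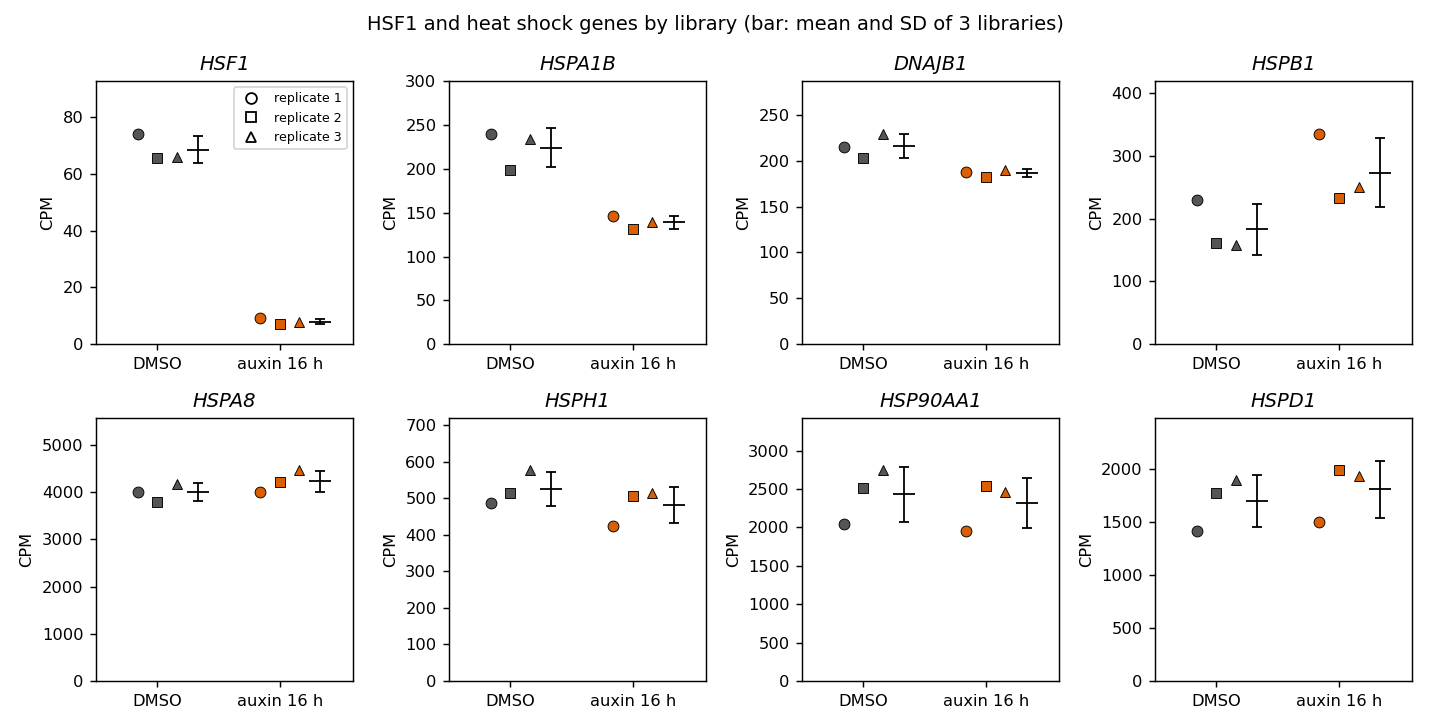
CPM (vertical axis, starting at 0 and scaled per panel) of HSF1 and 7 heat shock genes in each library, with circles, squares and triangles for replicates 1, 2 and 3 and a bar for the mean and SD of 3 libraries. HSF1 drops from 65.6 or more to 9.05 or less, HSPA1B and DNAJB1 lie lower and HSPB1 higher after auxin, and in the lower row the groups overlap.

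A search of the promoters gave the members with an exact match to a heat shock element of 3 units. These sites are shown because the element is the known binding site of HSF1. Elements with a mismatch or farther from the start were not searched, so a gene without a match may still have one. The motif searched was GAANNTTCNNGAA or TTCNNGAANNTTC, each made of 3 alternating units, so that the 2 forms are reverse complements and cover both strands, in the 250 bases before each gene's start in RefSeq (GRCh38.p14). It was found in 6 of the 74 members with a promoter entry, or 8.11%, and in 0.557% of all 27305 genes with one. The sites nearest to the start of the gene are printed 5′ to 3′ on the strand of the gene, with the motif in capitals.
HSPA8: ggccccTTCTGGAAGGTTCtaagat
HSP90AA1: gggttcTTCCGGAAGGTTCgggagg
HSP90AB1: agattgTTCTGGAAGCTTCtggatt
HSPD1: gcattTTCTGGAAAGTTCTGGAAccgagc
DNAJB6: agccgaGAACCTTCGCGAAggtggg
HSPA6: gaaaggTTCGCGAAAGTTCgcggcg

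These sites lie at chr11:123062173-123062197 (minus strand), chr14:102087114-102087138 (minus), chr6:44247825-44247849 (plus), chr2:197500062-197500090 (minus), chr7:157336867-157336891 (plus) and chr1:161524460-161524484 (plus), in the order shown. The distance from the motif to the gene's RefSeq start was 42 bases in HSPA8, 75 in HSP90AA1 and 99 in HSP90AB1. It was 118 bases in DNAJB6, 61 in HSPA6 and 227 in HSPD1. By the GENCODE release 29 coordinates of the members, the sites of HSPA8, HSP90AA1, HSP90AB1, DNAJB6 and HSPD1 lie inside the gene. The HSPA6 site lies before its gene. The windows shared 199 bases with exons of HSPA8-202, 207 with HSPD1-202, 147 with HSP90AA1-201, 77 with HSP90AB1-202 and 38 with DNAJB6-201. The HSPD1 site holds 2 overlapping matches in 18 bases, and HSPA8 and HSP90AB1 each have 2 matches in their windows. Of the 5 tested genes with the motif 0 were called under the main test, where 52.3% of all genes were, and 2 were called with the block (HSPD1 and DNAJB6, both higher). DNAJB6, a J-domain protein that keeps polyglutamine from aggregating, had a log2 fold change of 0.35 (adjusted p = 0.0631) and was called higher with the block (adjusted p = 1.91e-05) and from replicates 2 and 3 alone (adjusted p = 0.000242). The textbook targets HSPA1A, HSPA1B, DNAJB1 and HSPB1, which were called, had no match to these letters in their windows. HSPH1 and HSPE1, which were not called, had none in theirs either. The HSPD1 site, however, lies after the start of HSPE1 on the opposite strand. It falls within the 97 bases that the HSPD1 window shared with exons of HSPE1-201.

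Over the whole HSP70 family, with HSPA1A and HSPA1B counted in, 1 of 14 tested entries was higher and 6 were lower, with a median log2 fold change of -0.19. These are 7.14% and 42.9%, against 25.4% and 26.9% of all genes. With upper-quartile factors 3 were higher and 3 lower, and with the block 4 and 7. One entry matched by its release 29 symbol HSPA14 is now called MSANTD7 and is no HSP70. It was not called (log2 fold change 0.09) but was called higher with the block (adjusted p = 0.0229). It shares 8855 bases of the same strand with the true HSPA14, so reads there could be split between them.

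HSPA4, an HSP110-type exchange factor, was the HSP70 gene called higher. It was at 455, 498 and 551 CPM in DMSO replicates 1, 2 and 3 and at 567, 687 and 675 CPM after auxin. The groups did not overlap, though by little. The log2 fold change was 0.36 (standard error 0.10, adjusted p = 0.0237), and 6 of 17 alternatives ended the call. Without DMSO replicate 1 or 2 or auxin replicate 2 or 3 the value was 0.29 to 0.33, with adjusted p from 0.0745 to 0.0881 in edgeR.

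HSPA13, an HSP70 relative of the secretory pathway, was at 110, 150 and 154 CPM in DMSO replicates 1, 2 and 3 and at 80.8, 108 and 101 CPM after auxin. Replicate 1 was the lowest of each group. The log2 fold change was -0.51 (standard error 0.16, adjusted p = 0.0277). Without DMSO replicate 2 or 3 or auxin replicate 1 or 3 it was -0.54 to -0.40, with adjusted p from 0.0531 to 0.0801 in edgeR. HSPA2, best known from testis, was low, at 1.20 to 1.60 CPM in DMSO and 0.817 to 1.15 CPM after auxin (log2 fold change -0.61, standard error 0.19, adjusted p = 0.0290). That call ended without DMSO replicate 1 or 3 or auxin replicate 2 or 3, with values of -0.57 to -0.51 and adjusted p from 0.0682 to 0.0983 in edgeR. HSPA12A, a distant relative, had a log2 fold change of -0.31 (adjusted p = 0.00325), and HSPA14, the ribosome-bound HSP70, one of -0.36 (adjusted p = 0.0328).

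HSPA5, HSP90B1, DNAJB9 and DNAJB11, which work in the endoplasmic reticulum, were not called. Other members of the secretory pathway went both ways. HSPA13, given above, and DNAJB14 of the endoplasmic reticulum membrane, given below, were called lower. DNAJC5 of secretory vesicles, given below, was called higher. These are examples and not a full list of members in the pathway. Chaperone genes of the endoplasmic reticulum outside the member families were also called, as given with the partner lists. HSPA5, which encodes BiP, lay between 814 and 976 CPM in DMSO and between 738 and 916 CPM after auxin, with a log2 fold change of -0.07 (standard error 0.11) that turned to 0.05 with upper-quartile factors. HSP90B1, which encodes GRP94, had a log2 fold change of 0.22 (standard error 0.11, adjusted p = 0.132). It was called higher with the block (adjusted p = 0.000207) and from replicates 2 and 3 alone. The co-chaperones DNAJB9 and DNAJB11 were at -0.12 and -0.17 and were called lower with the block. From replicates 2 and 3 alone DNAJB11 was called lower (adjusted p = 0.0299) and DNAJB9 was not (adjusted p = 0.0880).

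The CCT genes had log2 fold changes above 0 in all 9 cases. The ring is built from 8 different subunits, which are made from TCP1 and CCT2 to CCT8, with CCT6A as the general form of the sixth and CCT6B as its testis-enriched form. Of the 9 genes 3 were called higher and 0 lower, with a median log2 fold change of 0.31. Higher calls were thus 33.3%, against 25.4% of all genes, of which 26.9% were lower. With the replicate block 8 were higher, where 35.5% of all genes were. From replicates 2 and 3 alone 7 were higher, where 30.2% of all genes were. The values of TCP1 and CCT8 fell below 0 with library-size scaling, at -0.0827 and -0.00101, and on the log2(TPM + 1) scale, at -0.157 and -0.0623.

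CCT2 was at 455, 507 and 557 CPM in DMSO replicates 1, 2 and 3 and at 568, 671 and 684.05 CPM after auxin. CCT6A was at 516, 599 and 643 CPM in DMSO and at 644, 789 and 763 CPM after auxin. In both genes replicate 1 was the lowest library of its group and the auxin libraries lay above the DMSO libraries, CCT6A by 1 CPM at the closest. The log2 fold changes were 0.34 (standard error 0.10, adjusted p = 0.0293) for CCT2 and 0.32 (standard error 0.11, adjusted p = 0.0454) for CCT6A. Leaving out DMSO replicate 1 or 2 or auxin replicate 2 or 3 ended both calls, with values of 0.27 to 0.32 for CCT2 (adjusted p 0.0892 to 0.103 in edgeR) and 0.24 to 0.32 for CCT6A (adjusted p 0.115 to 0.146).

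CCT3 and CCT5 had log2 fold changes nearly as large but a wider spread. CCT3 was at 683.56, 899 and 947 CPM in DMSO replicates 1, 2 and 3 and at 813, 1119 and 1197 CPM after auxin, or log2 fold change 0.31 (standard error 0.18, adjusted p = 0.185). Its auxin replicate 1 lay below DMSO replicates 2 and 3, so that the groups overlapped. CCT5 had a log2 fold change of 0.31 (standard error 0.14, adjusted p = 0.106), CCT4 one of 0.20 and CCT7 one of 0.19. With the block the adjusted p was 4.12e-05 for CCT3, 3.15e-05 for CCT5, 0.000795 for CCT4 and 0.000599 for CCT7. From replicates 2 and 3 alone it was 0.000594 for CCT3, 0.00132 for CCT5, 0.0151 for CCT4 and 0.0167 for CCT7. CCT8 had a log2 fold change of 0.09 and was called higher with the block (adjusted p = 0.0294), but not from replicates 2 and 3 alone (adjusted p = 0.165).

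TCP1 was last in this order. It was at 642, 761 and 824 CPM in DMSO and at 622, 791 and 826 CPM after auxin, or log2 fold change 0.01 (standard error 0.13, adjusted p = 0.968), with a block adjusted p of 0.910. Within the same replicate number, auxin was above DMSO in all 3 pairs for each of CCT2, CCT3, CCT4, CCT5, CCT6A, CCT6B, CCT7 and CCT8, and in 2 of 3 pairs for TCP1. Over all 19725 genes 8228 were higher in all 3 pairs, and 81.2% went the same way in all 3. CCT6B was rare, at 0.467, 0.489 and 0.527 CPM in DMSO and 1.32, 1.54 and 1.49 CPM after auxin. Its groups were well apart, with a log2 fold change of 1.55 (standard error 0.14, adjusted p = 9.59e-05).

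**Figure D3:**
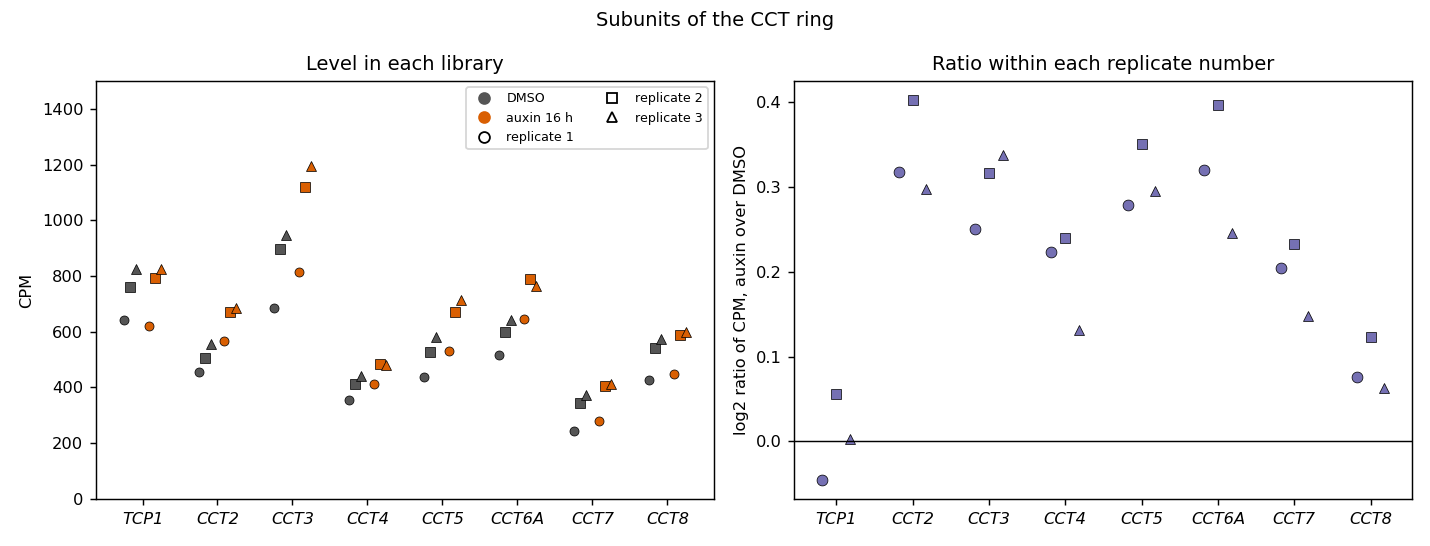
Left, CPM of the 8 general CCT subunits in each library, with grey for DMSO and orange for auxin; right, the log2 ratio of auxin over DMSO within each replicate number. Circles, squares and triangles are replicates 1, 2 and 3. Replicate 1 is lowest in both groups for each subunit, and the ratios lie above 0 except for TCP1 in replicate 1.

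Of the 5 entries with a small heat shock symbol that passed the filter, 1 was called higher (HSPB1) and 3 lower (HSPB11, HSPB8 and HSPB6). These are 20% and 60% of few entries, against 25.4% and 26.9% of all genes. HSPB11, whose protein IFT25 works in intraflagellar transport despite its name, was at 24.5, 30.4 and 30.6 CPM in DMSO replicates 1, 2 and 3 and at 15.9, 18.9 and 19.4 CPM after auxin. The groups did not overlap. Its log2 fold change was -0.66 (standard error 0.12, adjusted p = 0.00272). HSPB8, a partner of the co-chaperone BAG3, went from 7.10 ± 0.552 to 5.19 ± 0.375 CPM (SD, n = 3 each), and was called lower in edgeR (log2 fold change -0.45, adjusted p = 0.00839). HSPB6, best known from muscle, was close to 0 in every library, at 0.0663 to 0.108 CPM in DMSO and at most 0.0135 CPM after auxin, and was called lower. The readthrough entry HSPB2-C11orf52 was as rare and was not called.

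J-domain genes fall into 3 classes, and their counts stand against 25.4% of all genes called higher and 26.9% lower. DNAJA genes, the relatives of bacterial DnaJ in full length, had 2 higher and 1 lower of 4. DNAJB genes had 0 higher and 5 lower of 9, and 1 higher and 7 lower with the block. DNAJC genes, which share only the J domain, had 9 higher and 6 lower of 29, or 31.0% and 20.7%. The difference between the classes was not tested.

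DNAJB2, whose protein binds ubiquitin and is abundant in neurons, was at 10.9, 12.9 and 11.8 CPM in DMSO replicates 1, 2 and 3. After auxin it was at 5.56, 4.98 and 4.93 CPM. Every auxin library lay far below every DMSO library. This is a log2 fold change of -1.20 (standard error 0.10, adjusted p = 7.59e-05).

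DNAJB4 and DNAJB5, close relatives of DNAJB1, fell as well. DNAJB4 was at 42.9, 54.0 and 57.0 CPM in DMSO replicates 1, 2 and 3 and at 26.9, 33.1 and 31.0 CPM after auxin, or log2 fold change -0.76 (standard error 0.12, adjusted p = 0.00187). DNAJB5 was at 6.28, 6.65 and 6.08 CPM in DMSO and at 3.67, 3.60 and 3.58 CPM after auxin, or log2 fold change -0.81 (standard error 0.09, adjusted p = 0.000268). In both genes all auxin values were below all DMSO values. Compared with these, DNAJB14, a J protein of the endoplasmic reticulum membrane, changed little (log2 fold change -0.24, adjusted p = 0.0296).

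Among DNAJC genes the ribosome-bound DNAJC2 was the highest riser above 1 CPM. DNAJC2, which works with HSPA14 on new chains at the ribosome, was at 46.5, 50.9 and 55.5 CPM in DMSO replicates 1, 2 and 3 and at 85.1, 101 and 97.3 CPM after auxin. The groups were far apart. Its log2 fold change was 0.89 (standard error 0.09, adjusted p = 0.000185), while HSPA14 fell by 0.36 as given above. DNAJC2 shares 17038 bases with PMPCB on the opposite strand, which was not called (log2 fold change 0.11).

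Some J proteins of mitochondria were called higher, a grouping made after the values were seen. DNAJC30, an intronless gene whose protein serves the respiratory chain, was at 8.47, 6.80 and 6.79 CPM in DMSO and 14.2, 11.0 and 11.7 CPM after auxin (log2 fold change 0.75, standard error 0.14, adjusted p = 0.00302). DNAJA3, a mitochondrial J protein that partners mitochondrial HSP70, was at 75.5, 80.0 and 87.2 CPM in DMSO and 110, 118 and 120 CPM after auxin (0.52, standard error 0.07, adjusted p = 0.000804). DNAJC11, of the mitochondrial outer membrane, had a log2 fold change of 0.42 (standard error 0.10, adjusted p = 0.00969). In each of these 3 genes the auxin libraries lay above the DMSO libraries. DNAJC15 of the inner membrane was higher too, at 0.32 (adjusted p = 0.00668), but DNAJC19 of the same membrane was at -0.03 and DNAJC28 at -0.18, and neither was called. DNAJC4 was called lower, at -0.37 (adjusted p = 0.0260). HSPA9, the mitochondrial HSP70, was at 0.18 (standard error 0.16, adjusted p = 0.390) and was called higher with the block (adjusted p = 0.00123) and from replicates 2 and 3 alone (adjusted p = 0.0245).

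DNAJC5, the cysteine string protein of secretory vesicles, was at 98.1, 89.3 and 92.2 CPM in DMSO and at 138, 131 and 132 CPM after auxin. The auxin libraries were all higher. On the log2 scale the change was 0.52 (standard error 0.06, adjusted p = 0.000314). DNAJC16 followed closely, with a log2 fold change of 0.44 (standard error 0.06, adjusted p = 0.000964). DNAJC5B, a relative of DNAJC5, was rare, at 0.0497 to 0.0731 CPM in DMSO and 0.311 to 0.370 CPM after auxin, and was called higher (log2 fold change 2.39, adjusted p = 0.000132).

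DNAJC9, a J protein that handles histones, was the lowest DNAJC gene above 1 CPM. It was at 62.7, 62.8 and 71.02 CPM in DMSO replicates 1, 2 and 3 and at 33.8, 34.0 and 35.6 CPM after auxin. The auxin libraries lay close together and far below DMSO. On the log2 scale auxin minus DMSO was -0.93 (standard error 0.07, adjusted p = 4.01e-05). FAM149B1, which shares 61143 bases with it on the opposite strand, had a log2 fold change of 0.85. DNAJC27, a small GTPase with a J domain, was at 4.72, 5.02 and 4.40 CPM in DMSO and at 3.14, 2.90 and 3.08 CPM after auxin (log2 fold change -0.63, standard error 0.10, adjusted p = 0.00163). Its antisense gene DNAJC27-AS1 had a log2 fold change of 2.39, from 0.238 to 1.24 CPM, and without strand the 2 cannot be told apart where they overlap.

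Intronless and spliced members did not divide by direction. The tested members with 1 exon were HSPA1B, which fell, and DNAJC30, which rose. Another 4 intronless members, DNAJB7, HSPA6, HSPB3 and HSPB9, were below the filter. The median member called higher had 10.5 exons at most in a transcript and spanned 31.7 kb, the median member called lower had 6.5 exons and spanned 20.6 kb, and the median member not called had 11 exons and spanned 22.2 kb. These medians are a description of 16, 22 and 38 genes. Of the 76 tested members 40 overlap a gene on the opposite strand.

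Per length, the chaperone RNA of these cells came from few genes. HSPA8 held 26.5% of the summed TPM of all members in DMSO, and HSPA8, HSP90AB1, HSPD1 and HSP90AA1 together held 51.2%. Of the 20 members with the highest TPM in DMSO, 4 were higher, 1 was lower and 15 were not called, and the change was at most 1.49-fold (HSPB1). With the replicate block 12 of these were higher and 2 lower. Over all genes 25.4% were higher and 26.9% lower, and with the block 35.5% and 34.4%. The members summed to 1.23% of all TPM in DMSO and 1.18% after auxin. By family the log2 ratio of summed TPM was -0.12 for HSP70, -0.13 for HSP90, -0.07 for HSP60/HSP10, 0.07 for CCT, 0.27 for small heat shock genes, -0.01 for DNAJA, -0.29 for DNAJB and 0.01 for DNAJC. On the CPM scale the sums of HSP70, HSP90, HSP60/HSP10 and DNAJA were above 0 (0.05, 0.03, 0.09 and 0.14), so that their direction depended on the scale, while DNAJB stayed below 0 at -0.14.

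Several members changed the share of their transcripts. Of 628 annotated transcripts 422 were tested for their level, 15 were higher and 26 lower, which is 9.72% called against 19.7% of all 83072 transcripts tested. Over all transcripts 8.43% were higher and 11.2% lower. With the replicate block the numbers were 47 and 43, against 12.8% and 14.1% of all transcripts. Shares below are of a gene's summed TPM, and their exact two-sided permutation p over 20 assignments of the libraries cannot be lower than 0.1 in this design.

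DNAJC5 changed its share most plainly. DNAJC5-202, annotated as a target of nonsense-mediated decay, the pathway that removes RNAs with an early stop, held 19.4%, 18.8% and 19.7% of the gene in DMSO. After auxin it held 0.993%, 0.967% and 1.66%. The groups were far apart (exact permutation p = 0.1). The level of the transcript changed by -3.45 on the log2 scale (standard error 0.25, adjusted p = 0.000606), whereas the coding transcript DNAJC5-201 rose by 0.83 (standard error 0.06, adjusted p = 0.000680).

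In HSF1 the coding form lost share while the gene fell. HSF1-204, the main coding transcript, held 84.6%, 87.5% and 88.2% of the gene in DMSO and 55.0%, 68.5% and 68.0% after auxin. Auxin replicate 1 was the lowest. The level of HSF1-204 had a log2 fold change of -3.46 (standard error 0.09, adjusted p = 0.000101). The 8 transcripts annotated with a retained intron together held 4.69% to 6.23% in DMSO and 19.0% to 30.4% after auxin. Of the 3 retained-intron forms tested for their level, HSF1-211 was called lower (log2 fold change -1.50, adjusted p = 0.0457 in edgeR). HSF1-210 (0.01, adjusted p = 0.991) and HSF1-214 (0.97, adjusted p = 0.315) were not called.

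In DNAJB2 the 7 coding transcripts together went from a mean of 73.7% to 60.5% of the gene, but they did not all move alike. DNAJB2-202, a coding transcript, held 45.2%, 49.3% and 49.2% of the gene in DMSO and 27.1%, 22.3% and 37.1% after auxin, and its level had a log2 fold change of -2.17 (standard error 0.23, adjusted p = 0.00207). DNAJB2-201, also coding, gained share, from 18.4%, 15.3% and 20.1% in DMSO to 32.4%, 34.0% and 26.7% after auxin. The level of DNAJB2-201 was not called (log2 fold change -0.61, adjusted p = 0.0647 in edgeR). The 8 retained-intron transcripts of DNAJB2 together held 17.1% to 20.9% in DMSO and 34.8% to 41.7% after auxin. For DNAJB4-203, a noncoding transcript, the share went from 16.9% ± 0.86 to 5.21% ± 1.25 (SD, n = 3 each), and by counts the move was 2.92 in place of 11.7 percentage points. DNAJC16-202, coding, went from 68.8% ± 7.42 to 78.1% ± 5.05 with overlapping groups (exact permutation p = 0.2).

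**Figure D4:**
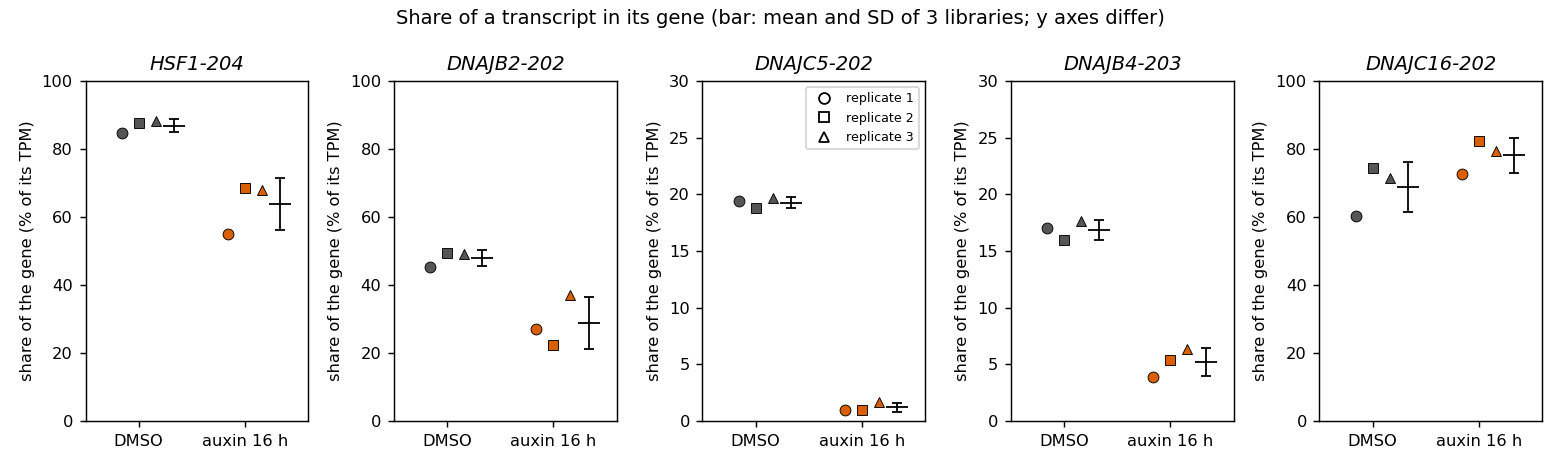
Share of each of 5 transcripts in the summed TPM of its gene (vertical axis, in percent, starting at 0) in the DMSO and auxin libraries, with circles, squares and triangles for replicates 1, 2 and 3 and a bar for the mean and SD of 3 libraries. The share of DNAJC5-202 lies at 18.8% or more in DMSO and at 1.66% or less after auxin, and only DNAJC16-202 overlaps between the groups.

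Partner genes of the chaperone system were counted in 5 lists. Of 25 co-chaperones of HSP70 and HSP90, 4 were higher and 11 lower, with a median log2 fold change of -0.03, and 6 were lower by at least 2-fold. These are 16% higher and 44% lower, against 25.4% and 26.9% of all genes, of which 13.3% were lower by at least 2-fold. The split was 10 and 12 with the replicate block and 8 and 10 with upper-quartile factors. Among those lower by at least 2-fold were PPP5C (-3.80), the HSP90-bound phosphatase, STUB1 (-2.66), the ubiquitin ligase CHIP, HSPBP1 (-2.11), an HSP70 exchange factor, UNC45A (-1.88), a myosin chaperone, and BAG6 (-1.39). The stress-inducible BAG3 was not called (0.14, adjusted p = 0.0775), but its groups did not overlap, and it was called higher with the block (adjusted p = 0.00259) and with upper-quartile factors (adjusted p = 0.00454). Of 6 further genes for heat shock factors and their binding partners, 2 were higher (HSF2BP at 1.85 and HSBP1 at 0.34) and 1 lower (HSF4 at -2.15). Mean CPM in DMSO was low for HSF2BP (0.554) and HSF4 (0.449). HSF2, which can pair with HSF1, was at -0.16 (adjusted p = 0.0588 in edgeR) with groups that did not overlap. It was called lower with the block (adjusted p = 0.00696).

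Of 19 tested genes for chaperones and the unfolded protein response of the endoplasmic reticulum, 5 were higher and 6 lower, and with the block 9 and 9. HYOU1, the HSP110 of this compartment, had a log2 fold change of -2.95 and P4HB, a disulfide isomerase, one of -1.40, with PDIA4 at -0.51 and the calreticulin gene CALR at -0.40, all called lower, whereas the stress factor gene ATF4 was at 0.60 and XBP1 at 0.42. Of 8 mitochondrial partners 2 were higher and 3 lower (2 and 5 with the block), with GRPEL1, the exchange factor of mitochondrial HSP70, at 0.71 and the protease gene LONP1 at -2.15. Of 9 genes of prefoldin, which hands actin and tubulin to CCT, and of CCT cofactors, 3 were higher and 2 lower (6 and 3 with the block). PFDN1 was at 0.51 and PFDN6 at -1.98. Called genes were 57.9% of the endoplasmic reticulum list, 62.5% of the mitochondrial list and 55.6% of the prefoldin list, close to the 52.3% of all genes. Over all genes 25.4% were higher and 26.9% lower, and with the block 35.5% and 34.4%. Median log2 fold changes were 0.06 for the endoplasmic reticulum list, -0.22 for the mitochondrial list and 0.36 for the prefoldin list, against 0.02 over all genes.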

How the data were processed

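Members and gene lists were chosen with earlier results of these data known. Ribosomal RNA was depleted and paired-end libraries were made with a stranded kit, per the labels' protocols. The authors deposited, per the file headers, an expected count (estimated, so not always whole) and a TPM for every gene and transcript. STAR, DESeq2 and bcl2fastq 2.20 are named, with GRCh38/hg38, per the submitters' processing notes, without their roles. The counting program and strand use are not given in the sources used here. All gene IDs matched GENCODE release 29.

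Expected counts were rounded and tested in edgeR 4.0.16 (R 4.3.3) with filterByExpr, TMM factors, glmQLFit and glmQLFTest, over all 19725 genes or 83072 transcripts left by the filter. CPM values use the TMM factors. DESeq2 1.42.0 and limma 3.58.1 served as alternatives, besides other scalings and filters, a replicate block and left-out libraries. The 746 entries with other IDs, at most 0.00111% of a library, were left out. Libraries of a group differed by more than sampling noise (chi-square per degree of freedom 38.2 to 577).

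Named genes were 23 listed ones (HSF1, its textbook targets, HSPA1L, HSPA5, HSP90B1 and the CCT subunits) and the 10 largest called changes in each direction with a mean of at least 1 CPM. Genes and transcripts outside this rule were named after their values were seen. Named transcripts were those of the 5 genes with the largest move in share, and the HSPA1A and HSPA1B transcripts. On simulated counts over 19725 genes, of which 200 were changed, 90% of 2-fold and 54% of 1.5-fold changes were recovered and 4% of calls were false. Over 83072 transcripts, of which 8000 were changed, 34.1% of 2-fold and 87.3% of 4-fold changes were recovered. The changes were balanced up and down, in features above 1 CPM, and no offset of replicate 1 was simulated. In the data 52.3% of all genes were called, so these rates need not hold there. The labels give both groups biological replicate numbers 1, 2 and 3. Across genes the deviations of same-numbered libraries correlated at 0.65, 0.27 and 0.28, and other pairs ranged from -0.47 to 0.31. The 0.31 was between DMSO replicate 3 and auxin replicate 2. These values set replicate 1 apart in both groups but do not show how replicates 2 and 3 pair. The numbers were used as a block in an alternative fit, and the main fit had no block.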

Additional observations from a re-analysis of the deposited data

How the results depend on the processing

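Depth was not the limit for most members, but 9 were too rare to test. The count of higher members moved from 16 to 28 with upper-quartile factors, 28 from replicates 2 and 3 only and 34 with the replicate block. It was 3 with limma-trend on log2(TPM + 1) or log2(TPM + 0.1). Over all 19725 genes the higher calls moved from 5010 to 6534 with upper-quartile factors and 7005 with the block. They were 970 with log2(TPM + 1) and 1017 with log2(TPM + 0.1), and from replicates 2 and 3 only 5914 of 19556 genes. The count of higher members ranged from 9 to 21 when a library was left out, with 9 without DMSO replicate 2 and 10 without auxin replicate 2 or 3. Over all genes the same fits gave from 3876 (without DMSO replicate 2) to 4979 (without auxin replicate 1) higher calls. Lower members moved from 22 to 14 with upper-quartile factors, 11 with log2(TPM + 1) and 12 with log2(TPM + 0.1). With a library left out they ranged from 13 (without DMSO replicate 3) to 19, with 14 without auxin replicate 1. Over all genes the lower calls moved from 5311 to 4416 with upper-quartile factors, 2966 with log2(TPM + 1) and 3223 with log2(TPM + 0.1). With a library left out they ranged from 4493 (without auxin replicate 3) to 5575 (without auxin replicate 1). Transcripts called higher moved from 15 to 36 with upper-quartile factors and 47 with the block, and ranged from 5 to 15 with a library left out (5 without DMSO replicate 2, 7 without DMSO replicate 3 or auxin replicate 2 or 3). Lower transcripts moved from 26 to 43 with the block, and ranged from 14 to 22 (14 without DMSO replicate 3, 15 without DMSO replicate 2 or auxin replicate 3, 17 without auxin replicate 2). Over all 83072 transcripts the higher calls moved from 8.43% to 12.8% with the block and the lower calls from 11.2% to 14.1%. For the other transcript fits the shares over all transcripts are not given here, so those counts have no reference. The replicate block added 18 higher and 7 lower calls among the members and ended none. By counts the share of DNAJB2-202 moved by -24.97 and that of DNAJB4-203 by -2.92 percentage points. Summed CPM in place of TPM moved the log2 ratio to 0.0309 for HSP90, 0.0878 for HSP60/HSP10, 0.22 for CCT and 0.14 for DNAJA. The cause of these moves was not tested.

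Over the 37 named genes tested and 628 values, 508 kept their side, 65 lost and 21 gained a call, and 34 reversed, all in genes not called. The reversed values were, with library size only, CCT8 -0.00101, HSP90AB1 -0.0502, HSPA8 -0.0101, HSPE1 -0.0599 and TCP1 -0.0827. On the log2(TPM + 1) scale they were CCT8 -0.0623, HSP90AB1 -0.116, HSPA8 -0.0818, HSPD1 -0.0587, HSPE1 -0.103 and TCP1 -0.157, and on the log2(TPM + 0.1) scale CCT8 -0.0625, HSP90AB1 -0.117, HSPA8 -0.0818, HSPD1 -0.0587, HSPE1 -0.103 and TCP1 -0.158. With upper-quartile factors HSP90AA1 0.0506 and HSPA5 0.0462 changed sign, and without the low-count filter TCP1 -0.0139. With a library left out, values ran for CCT8 from -0.0261 to 0.213, for HSP90AA1 from -0.179 to 0.0443, for HSP90AB1 from -0.0386 to 0.143, for HSPA5 from -0.137 to 0.0232, for HSPD1 from -0.0163 to 0.216, for HSPE1 from -0.101 to 0.182 and for TCP1 from -0.0843 to 0.126. Below 0 were CCT8, HSPD1, HSPE1, TCP1 and HSP90AB1 without DMSO replicate 1, and HSPE1, TCP1 and HSP90AB1 without auxin replicate 2 or 3. Above 0 were HSP90AA1 without DMSO replicate 3 or auxin replicate 1 and HSPA5 without auxin replicate 1.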

Other observations

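The tables also list 105 pseudogene entries named after members, of which 25 were tested, 1 was higher and 3 were lower. Over all genes 25.4% were higher and 26.9% lower. Their summed level lay between 7.90 and 8.05 CPM in DMSO and between 7.81 and 8.40 CPM after auxin, which is 0.0303% to 0.0380% of the members' CPM. HSP90AA2P was the highest of those tested, with a mean of 1.62 CPM in DMSO against 1.61 CPM in auxin.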
